A study of Solanum lycopersicum with 12 samples.

Results

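The genes described are 6 tomato genes listed under ethylene synthesis. They are the ACC synthases ACS2, ACS4 and ACS6 and the genes listed as ACC oxidases, ACO1, ACO3 and ACO4. They were taken by gene identifier from a list drawn up with earlier results of these data known. Of the 6, 5 had a row among the 34075 genes of the count files, and 4 had at least 1 count. The filter of more than 1 CPM (counts scaled to a common library size) in at least 3 libraries was passed by 3. These are the genes listed as ACC oxidases, and whether ACO3 is an ACC oxidase was not settled here. ACS6 (*Solyc08g008100*) was not analysed here. RNA was sequenced from leaflets of the tomato cultivar Better Bush, a dwarf hybrid, grown hydroponically in a chamber. Infested plants received 6 larvae of the leafminer *T. absoluta* on the terminal leaflets of a single leaf, and control plants a mock deposition. The larvae were taken off at harvest, after 5 h or 24 h. With 2 treatments and 2 harvests this gave 4 groups of 3 libraries, called control 5 h, infested 5 h, control 24 h and infested 24 h. All groups share the cultivar and the growth conditions, so the controls of each time differ from the infested plants by the larvae only, as far as the labels say, whereas the 5 h and 24 h groups also differ in the harvest itself. The elapsed time, the hour of the day and the handling of a harvest cannot be told apart.

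Ethylene is a gaseous plant hormone that is produced after wounding and herbivory, among other triggers. It is made from S-adenosylmethionine in a pair of steps. ACC synthase (ACS) converts S-adenosylmethionine to 1-aminocyclopropane-1-carboxylic acid (ACC), usually the rate-limiting step, and ACC oxidase (ACO) then converts ACC to ethylene. Both enzymes are encoded by small gene families whose members are switched on in different organs and by different triggers. In tomato, ACS2 and ACS4 are best known from ripening fruit, where ACS2 also responds to wounding, and ACO1 is known as a ripening gene that is also induced in wounded leaves. S-adenosylmethionine is also the precursor, after decarboxylation, of the aminopropyl groups of the polyamines spermidine and spermine.

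The libraries held between 19655669 and 28209033 counts, with a median of 26435432, so that a floor of 3 counts stood at 0.0960 to 0.167 CPM, a limit that covers counting error only. CPM were computed on library totals scaled by TMM, edgeR's correction for differences in RNA composition. The labels and the study's methods give 6 infested and 6 control plants for the 12 libraries, which fits 1 plant per library, but neither states it. The p-values measure the spread between these libraries. A pair of genes that the study files under light harvesting, *Solyc03g005780* and *Solyc02g070940*, were read in all 12 libraries, at 40.85 CPM or more. Both were lower in the 24 h libraries than in the 5 h libraries of the same treatment.

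ACO1 (*Solyc07g049530*) was higher in all infested than in all control libraries at both times. Its levels were 18.4, 28.6 and 15.4 CPM in control 5 h (20.8 ± 6.96, SD, n = 3) and 135.8, 133 and 81.5 CPM in infested 5 h (116.8 ± 30.6, SD, n = 3). In control 24 h they were 147.1, 221.4 and 7.19 CPM (125.3 ± 108.8, SD, n = 3), and in infested 24 h 761.8, 571.1 and 488.9 CPM (607.3 ± 140, SD, n = 3). The control 24 h libraries thus did not stand together, since replicates 1 and 2 lay above all infested 5 h libraries and replicate 3 lay below every other library.

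**Figure D1:**
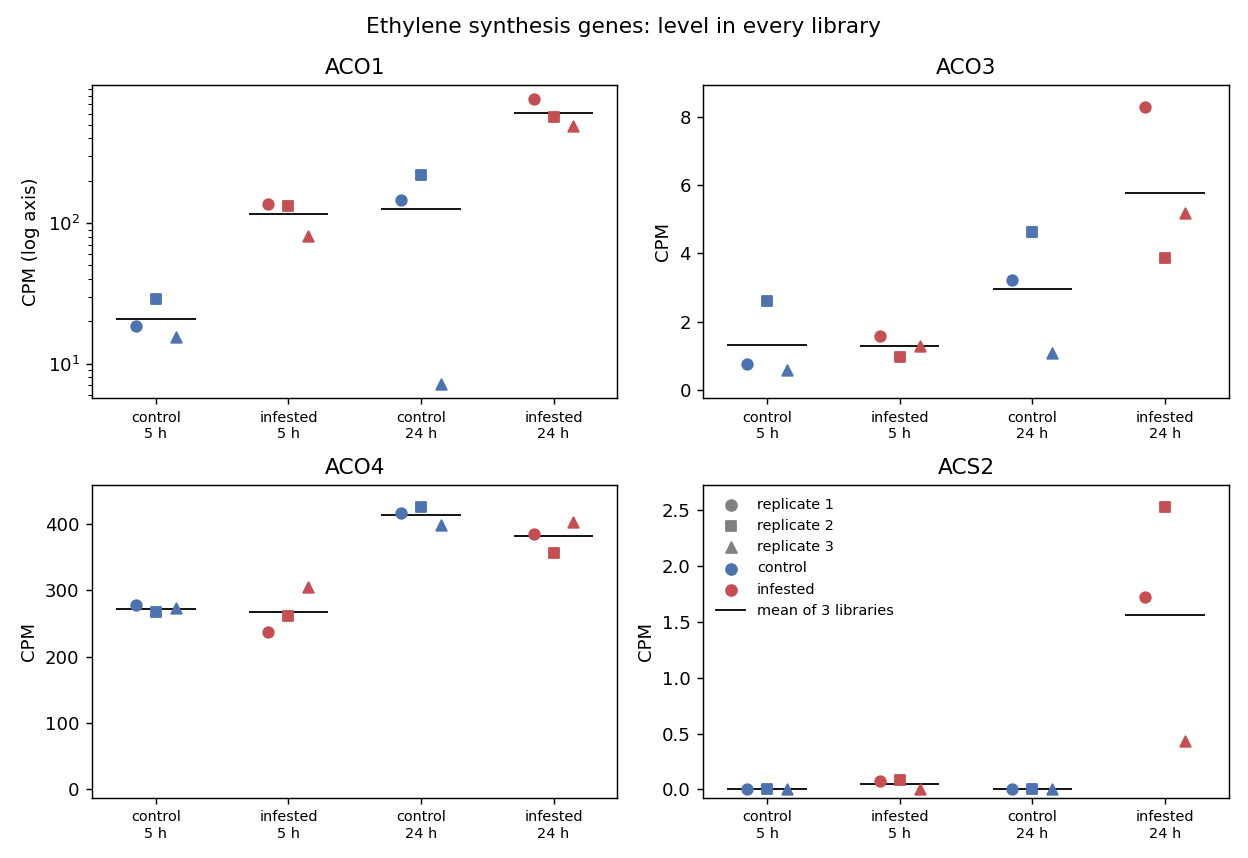
Level of ACO1, ACO3, ACO4 and ACS2 in each of the 12 libraries, in CPM, with a log axis for ACO1 and linear axes for the others; points are libraries, symbols give the replicate number, blue is control, red is infested, and the line is the mean of 3 libraries. ACO1 separates infested from control at both times, control 24 h replicate 3 has its lowest value at 7.19 CPM, ACO4 lies higher in all 24 h than in all 5 h libraries while its treatments overlap, and ACS2 is at 0 in all 6 control libraries.

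At 5 h the fitted log2 fold change of ACO1 was 2.49 (SE 0.77), 5.62-fold higher in infested leaflets, with an adjusted p of 0.0549 (edgeR's quasi-likelihood test, Benjamini-Hochberg over 18200 genes), just above the limit of 0.05. At 24 h it was 2.28 (SE 0.76), 4.85-fold higher, with an adjusted p of 0.0468. The difference between the responses was -0.21 (SE 1.03, adjusted p = 0.943). Its direction was not stable, at 0.48 without control 24 h replicate 2 and 0.20 with the replicate block, and -0.77 without control 24 h replicate 3, and it was called in none of these fits. The value at 5 h missed the limit and that at 24 h met it, but a difference between the times was not shown.

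The call for ACO1 at either time depended on single libraries, including those of the other harvest, and all 12 share an estimate of the spread for each gene. Without control 24 h replicate 3, the adjusted p at 5 h fell to 0.000225, with a log2 fold change of 2.49, and at 24 h to 0.0060, with a log2 fold change of 1.72. Without control 24 h replicate 2 the log2 fold change at 24 h was 2.97, with an adjusted p of 0.0310, and the value at 5 h also passed, at 0.0474. Leaving out any of the other 10 libraries gave an adjusted p between 0.0568 and 0.109 at 24 h, above the limit. When only the 6 libraries of a time were fitted, the adjusted p was 8.74e-05 at 5 h and 0.140 at 24 h. At 24 h the log2 fold change stayed between 1.72 and 2.97 in all 23 alternatives, of which 11 called the gene, and at 5 h between 2.31 and 2.79, of which 7 called it.

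With the mean of the responses at 5 h and 24 h as a single contrast, a comparison added after the values were seen, ACO1 rose by 2.38 on the log2 scale (SE 0.54, 5.22-fold, adjusted p = 0.00575, edgeR's quasi-likelihood test). This call held in all 22 alternatives, with adjusted p up to 0.0191. Of all genes tested, 30.8% were called in this contrast, 14.9% as higher in infested leaflets. The plot of adjusted p by setting shows the contrast between the single times.

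**Figure D2:**
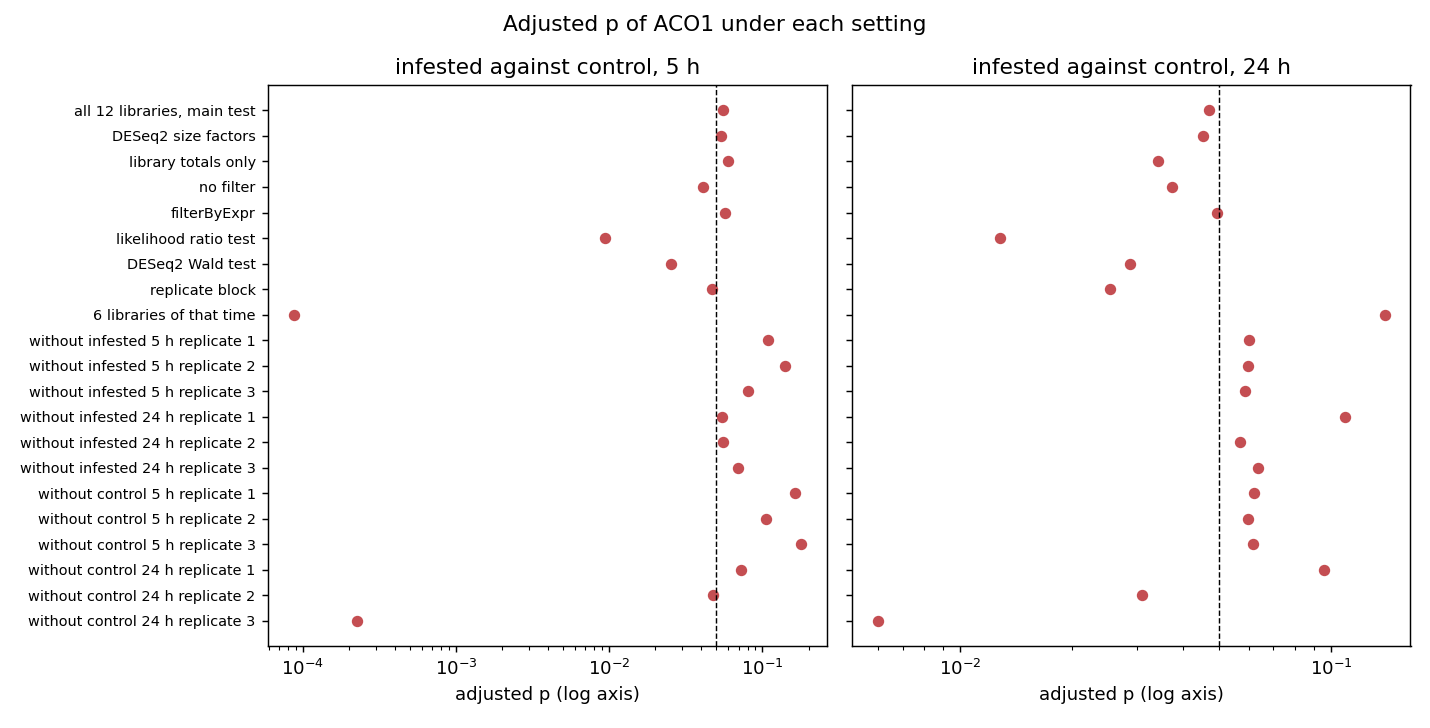
Adjusted p of ACO1 for infested against control at 5 h (left) and 24 h (right), on a log axis, under each setting of the analysis; the dashed line is 0.05 and the left-out library is named at the left. Leaving out control 24 h replicate 3 gives 0.000225 at 5 h and 0.0060 at 24 h, and fitting only the 24 h libraries gives 0.140.

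The low ACO1 level of control 24 h replicate 3 rested on 161 counts, against 4165 and 5708 in replicates 1 and 2. The 95% counting interval of that library ran from 6.12 to 8.38 CPM, far from the 143 to 152 CPM of replicate 1. The spread of ACO1 over these 3 libraries was 30.8-fold, and among 9141 genes with a mean of at least 10 CPM in control 24 h only 4 (0.0438%), ACO1 included, had a spread of that size or more. Replicate 3 was at least 10-fold below both other libraries for 12 of these genes, and neither replicate 1 nor replicate 2 was for any. ACO4, by contrast, was at 398.2 CPM in that library, close to the 415.6 and 424.9 CPM of the others. What set this library apart was not tested.

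The genes whose levels were most like ACO1 over the 12 libraries had the same low value. They were picked for this likeness on the same libraries, so the low value and the order of groups follow in part from the choice. By Pearson correlation of log2 CPM, which is a description over libraries of 4 groups, these were *Solyc04g040180* and *Solyc04g048900* (r = 0.977 each) and *Solyc07g042550* (r = 0.974). In control 24 h, *Solyc04g040180* stood at 11.9, 25.6 and 0.357 CPM, *Solyc04g048900* at 37.1, 36.6 and 6.07 CPM, and *Solyc07g042550* at 45.6, 97.8 and 12.4 CPM. For all of them replicate 3 was the lowest of the 12 libraries. Their group means, like those of ACO1, were lowest in control 5 h and highest in infested 24 h, for example 25.5 CPM in control 5 h, 65.1 in infested 5 h, 51.9 in control 24 h and 161 in infested 24 h for *Solyc07g042550*. No source used here names these genes.

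ACO1 also differed between the harvests. In infested leaflets it was 2.38 higher at 24 h than at 5 h on the log2 scale (SE 0.76, adjusted p = 0.0299, edgeR), and the 3 libraries of each time did not overlap. In controls the difference was 2.59 (SE 0.78, adjusted p = 0.0268), with overlap, because replicate 3 of control 24 h lay below all control 5 h libraries. Without it the difference was 3.15 (adjusted p = 3.58e-05), whereas without control 24 h replicate 2 it was 1.90 (adjusted p = 0.105). Leaving out control 24 h replicate 1 or any control 5 h library also ended this call, with adjusted p of 0.0546 to 0.0966. The difference in infested leaflets lost its call without any infested 5 h library or infested 24 h replicate 1, with adjusted p of 0.0632 to 0.101. In order of their means the groups ran control 5 h, infested 5 h, control 24 h and infested 24 h, and the middle neighbours did not differ beyond their spread (0.10, SE 0.73, adjusted p = 0.927). From the lowest to the highest group the difference was 4.87 (SE 0.86, 29.2-fold, adjusted p = 0.000853), which mixes harvest and treatment. Of all genes, 38.5% were called between the middle groups and 39.3% between the outer groups.

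ACO3 (*Solyc09g089580*) overlapped between infested and control leaflets at both times. The names ACO3 and ACO4 are each used for more than 1 gene in RefSeq. The entry with the symbol ACO3 lies on chromosome 9, as the identifier says, but carries the synonym E8/Sl27DOX. The entry with the symbol ACO4 lies on chromosome 2, as the identifier of ACO4 says. A separate entry on chromosome 7 has both ACO3 and ACO4 as synonyms. *Solyc09g089580* is counted among the ACC oxidases by the name the list gives it, which was not settled here. The levels were 0.753, 2.61 and 0.572 CPM in control 5 h (1.31 ± 1.13, SD, n = 3), 1.56, 0.962 and 1.28 CPM in infested 5 h (1.27 ± 0.300, SD, n = 3), 3.22, 4.62 and 1.07 CPM in control 24 h (2.97 ± 1.79, SD, n = 3), and 8.29, 3.87 and 5.18 CPM in infested 24 h (5.78 ± 2.27, SD, n = 3). As for ACO1, replicate 2 was the highest and replicate 3 the lowest library in both control groups.

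The fitted response of ACO3 was -0.05 at 5 h (SE 0.62, adjusted p = 0.976) and 0.95 at 24 h (SE 0.57, adjusted p = 0.252). The value at 5 h was 0.93 without control 5 h replicate 2, and still not called (adjusted p = 0.408). What passed the test was the harvest in infested leaflets, where ACO3 was 4.53-fold higher at 24 h than at 5 h (log2 fold change 2.18, SE 0.61, adjusted p = 0.0152, edgeR) with no overlap. Without infested 5 h replicate 2 it no longer passed (2.01, adjusted p = 0.0581). In controls the difference between harvests was 1.18 (SE 0.60, adjusted p = 0.169), and it was 2.16 and called without control 5 h replicate 2 (adjusted p = 0.0262). Whether the 24 h and 5 h responses differ did not pass either (1.0, SE 0.84, adjusted p = 0.598).

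ACO4 (*Solyc02g081190*) overlapped between treatments at both times and was higher at the later harvest. Its levels were 277.4, 266.9 and 272.6 CPM in control 5 h (272.3 ± 5.28, SD, n = 3) and 236.7, 260.4 and 305.2 CPM in infested 5 h (267.4 ± 34.8, SD, n = 3). At 24 h they were 415.6, 424.9 and 398.2 CPM in controls (412.9 ± 13.5, SD, n = 3) and 384.6, 356.6 and 403.0 CPM in infested leaflets (381.4 ± 23.4, SD, n = 3). Every 24 h library was thus above every 5 h library, with or without larvae.

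The fitted response of ACO4 to infestation was -0.03 at 5 h (SE 0.11, adjusted p = 0.919) and -0.11 at 24 h (SE 0.11, adjusted p = 0.492), where scaling by library totals alone turned the sign (0.07, adjusted p = 0.674). With standard errors of 0.11, these are the most precisely measured responses of the 3 genes listed as ACC oxidases. Between harvests ACO4 was 1.52-fold higher at 24 h in controls (log2 fold change 0.60, SE 0.11, adjusted p = 0.0016) and 1.43-fold higher in infested leaflets (0.51, SE 0.11, adjusted p = 0.00359), by the same test. No left-out library ended these calls. The genes most like ACO4 were *Solyc07g064420* (r = 0.977), *Solyc07g040680* (r = 0.974) and *Solyc03g096760* (r = 0.971). Their group means were also higher at 24 h, which follows in part from picking them on the same libraries. For *Solyc03g096760* they were 13.1 and 9.01 CPM in control and infested 5 h and 141 and 109 CPM in control and infested 24 h.

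The ratio of ACO1 to ACO4 counts within a library, which does not depend on scaling, separated infested from control leaflets at both times. The ratio was 0.0662, 0.107 and 0.0563 in control 5 h and 0.574, 0.511 and 0.267 in infested 5 h. It was 0.354, 0.521 and 0.018 in control 24 h and 1.98, 1.6 and 1.21 in infested 24 h. Counts of ACO1 thus exceeded those of ACO4 only in the 3 infested 24 h libraries. The counts were not corrected for transcript length, so this is a statement on counts between libraries and not on their transcript numbers.

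**Figure D3:**
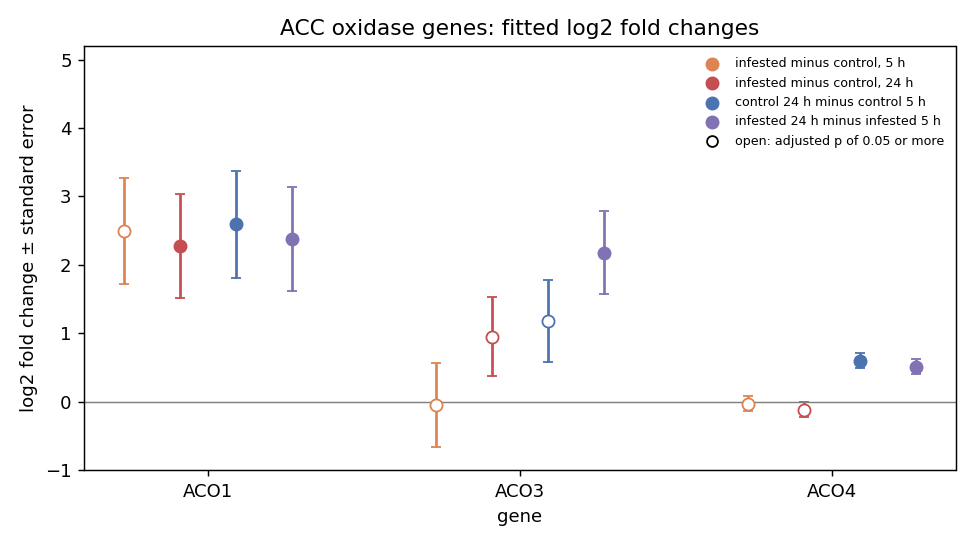
Fitted log2 fold changes of the 3 genes listed as ACC oxidases, with bars of 1 standard error. The comparisons are infested against control at 5 h and 24 h, and 24 h against 5 h in controls and in infested leaflets. Filled points have an adjusted p below 0.05. ACO1 is above 2 in all 4 comparisons, ACO3 passes for the harvest in infested leaflets only, and ACO4 for both harvest comparisons with the smallest errors.

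Of the ACC synthases with a row, ACS4 was not detected and ACS2 was detected in infested leaflets only. ACS4 (*Solyc05g050010*) had 0 counts in all 12 libraries, which over all libraries together allows a level of up to 0.0098 CPM. ACS2 (*Solyc01g095080*) had 0 counts in all 6 control libraries, 2, 2 and 0 counts in infested 5 h, and 46, 79 and 12 counts in infested 24 h. In CPM the infested 24 h libraries stood at 1.73, 2.53 and 0.432. Every infested 24 h library was thus above every control, and the lowest of them was above its own floor of 0.108 CPM.

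Over the group, the 137 ACS2 counts of infested 24 h were at least 40.8-fold higher than a floor of 3 counts over the 3 control 24 h libraries, which is 0.0392 CPM. Only 2 libraries exceeded 1 CPM, so ACS2 did not pass the filter and was not tested with the others. In the fit of 25878 genes without a filter, 4090 genes were called for infested against control at 24 h. There the adjusted p of ACS2 was 0.00345 (edgeR's quasi-likelihood test). With edgeR's own filter, which kept 20315 genes, it was 0.00491. ACS2 has counts in infested libraries only and passed edgeR's own filter only through infested 24 h. These values are thus a description of its counts and not separate support. At 5 h the adjusted p was 0.30 and 0.284. The 4 counts of infested 5 h against 0 in controls do not allow a statement at this depth. Infested 24 h was above infested 5 h by the same fits (adjusted p = 0.00795 and 0.00829). The difference between the responses could not be judged for ACS2, since the controls of both times are at 0.

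Among the 3 genes tested as ACC oxidases, ACO3 with its unsettled name included, 1 (ACO1) was called at 24 h, as higher, where 24.3% of all 18200 genes were called and 11.8% were called as higher. With library totals alone, the calls over all genes at 24 h split into 3539 higher and 1303 lower instead of 2139 and 2279, and the median of all genes moved from 0.02 to 0.21 on the log2 scale. Leaving out any library but control 24 h replicates 2 and 3 left 0 of the 3 called, as given above for ACO1. Without a filter or with edgeR's own filter, 2 were called, ACO1 and ACS2, the latter tested only through its counts in infested libraries. At 5 h 0 were called, where 12.5% of all genes were, 1 (ACO1) had an unadjusted p below 0.05, and DESeq2 and the likelihood ratio test each called 1. For the difference between the responses 0 were called, against 2.16% of all genes, 0 had an unadjusted p below 0.05, and neither the likelihood ratio test nor DESeq2 called any.

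Between the control harvests 2 of 3 were called, both higher at 24 h (ACO1 and ACO4), where 27.7% of all genes were called and 13.7% as higher. Between the infested harvests 3 of 3 were called (ACO1, ACO3 and ACO4), all higher at 24 h, where 34.7% were called and 17.3% as higher. The groups did not overlap for 1 of 3 (ACO1) at each time, with infested higher, beside 17.5% of all genes at 5 h and 17.8% at 24 h. Between harvests the groups did not overlap for 1 of 3 in controls (ACO4) and 3 of 3 in infested leaflets (ACO1, ACO3 and ACO4), all with 24 h higher, beside 21.3% and 22.3% of all genes. The median log2 fold change over the 3 genes was -0.03 at 5 h and 0.95 at 24 h, beside -0.03 and 0.02 over all genes tested. With 3 genes, these counts describe the genes and do not set them apart from the rest of the genome. In bulk leaflets, a change in transcripts per cell and a change in the number of cells that express a gene cannot be told apart.

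The genes listed as ACC oxidases were alike over the 12 libraries to different degrees. The correlation of log2 CPM was highest for ACO1 and ACO3 (r = 0.805), lower for ACO3 and ACO4 (r = 0.65), and lowest for ACO1 and ACO4 (r = 0.367). These values share the libraries and the group structure and are a description. The genes most like ACO3 were *Solyc03g120260* and *Solyc01g106510* (r = 0.965 each) and *Solyc02g084840* (r = 0.962). Their means, like that of ACO3, were highest in infested 24 h, which follows in part from picking them on the same libraries. *Solyc03g120260* stood at 9.24 and 7.81 CPM in control and infested 5 h and at 71.2 and 387 CPM in control and infested 24 h.

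Ethylene is perceived by membrane receptors that are negative regulators of the response. The study names 5 genes as ethylene signalling proteins or receptors, a list it took from these same samples, so its direction at 24 h is not independent evidence. Of these, 4 rose in infested leaflets at 24 h and 1 at 5 h, against 11.8% and 6.94% of all genes. *Solyc06g053710* rose at both times, by 2.47 on the log2 scale at 5 h (SE 0.39, adjusted p = 0.00128) and by 1.27 at 24 h (SE 0.35, adjusted p = 0.0205, edgeR). The 24 h call was lost without infested 24 h replicate 1 (0.68, adjusted p = 0.0862), control 24 h replicate 1 (adjusted p = 0.0529) or control 24 h replicate 3 (adjusted p = 0.0622). Its levels were 1.347, 0.735 and 1.225 CPM in control 5 h, 4.907, 6.974 and 6.528 in infested 5 h, 5.441, 5.121 and 4.954 in control 24 h, and 21.01, 8.097 and 8.311 in infested 24 h, so that, like ACO1, it was also higher at 24 h than at 5 h in controls (2.22, SE 0.39, adjusted p = 0.00107).

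The other 3 rose at 24 h only by the test, although the difference between the times was not called for any: *Solyc12g011330* by 0.86 (adjusted p = 0.0227), *Solyc11g006180* by 0.72 (adjusted p = 0.044) and *Solyc09g007870* by 0.45 (adjusted p = 0.0188). The call for *Solyc11g006180* was lost in 8 of the 12 fits with a library left out (adjusted p up to 0.149) and held without control 24 h replicate 2, infested 24 h replicate 3 or infested 5 h replicates 1 or 3. That for *Solyc12g011330* was lost in 3, without replicate 1 of infested 24 h (0.0886), replicate 1 of control 24 h (0.0641) or replicate 2 of control 24 h (0.064), and that for *Solyc09g007870* in 1, without control 24 h replicate 3 (0.0685). *Solyc05g055070* had 0.71 (adjusted p = 0.0523). None of the 5 was called when only the 24 h libraries were fitted, where 1952 of 17511 genes were called, against 4418 of 18200 in the main fit. Without infested 24 h replicate 1, control 24 h replicate 1 or control 24 h replicate 3, 1 of the 5 was called at 24 h. Over all genes, these fits called 2722 of 18005, 3069 of 18117 and 2739 of 18106. The median of the 5 was 0.06 at 5 h and 0.72 at 24 h.

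The polyamine list, taken from the study, holds 7 spermidine and spermine synthase genes, which use decarboxylated S-adenosylmethionine, and 4 were tested. The spermine synthase *Solyc03g007240* rose at both times, and the other 3 were not called at either. Of all genes, 6.94% were called as higher at 5 h and 11.8% at 24 h. The study already reports *Solyc03g007240* as strongly induced at both times in these same samples, so its direction is not independent evidence. Its levels were 43.37, 36.13 and 37.8 CPM in control 5 h, 725.7, 1372 and 1120 in infested 5 h, 59.6, 73.21 and 69.13 in control 24 h, and 624.4, 179.6 and 762 in infested 24 h. It was thus 27.4-fold higher at 5 h (log2 fold change 4.78, SE 0.46, adjusted p = 5.26e-05) and 7.75-fold higher at 24 h (2.95, SE 0.42, adjusted p = 0.000704, edgeR). The difference between these responses was -1.82 (SE 0.56, adjusted p = 0.114). It passed without infested 24 h replicate 2 (0.0418), whose level was the lowest of that group, or replicate 3 (0.0481). The difference between the control harvests, called for ACO1, was not called here (0.78, SE 0.39, adjusted p = 0.166). The spermidine synthase *Solyc04g026030* was lower at 24 h than at 5 h in controls (-0.996, SE 0.15, adjusted p = 0.000505) and in infested leaflets (-1.01, SE 0.15, adjusted p = 0.000387). Of the list, 2 genes instead of 1 were called at 24 h with library totals alone, with DESeq2, and on leaving out replicate 2 of infested 24 h or of control 24 h. Over all 18200 genes, library totals alone called 4842 at 24 h and DESeq2's test 5166, against 4418 in the main fit. The fits without those libraries called 4666 of 18045 and 4287 of 18124 genes.

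Further identifiers were followed in 3 lists drawn up from general knowledge. The first holds other ACC synthase and ACC oxidase candidates and the second S-adenosylmethionine synthase candidates. The third holds candidates for ethylene receptors and signalling, not for synthesis. The sources used here do not annotate these identifiers, so they are given without a name, and the role of each was not settled. In the first list 4 of 9 were tested. *Solyc08g079750* was lower in infested leaflets at 5 h (-0.92, SE 0.17, adjusted p = 0.0031) and at 24 h (-0.76, SE 0.16, adjusted p = 0.00641), with no overlap at either time: 41.95, 34.99 and 38.7 CPM in control 5 h, 24.09, 16.19 and 20.81 in infested 5 h, 97.65, 90.67 and 115.8 in control 24 h, and 51.35, 57.61 and 70.7 in infested 24 h. Lower calls made up 5.59% of all genes at 5 h and 12.5% at 24 h, and 18.3% and 18.6% of all genes had infested libraries that all lay below the controls. This gene moved opposite to ACO1 with the treatment and, like ACO1, was higher at 24 h (1.40, SE 0.17, adjusted p = 7.34e-05 in controls). *Solyc02g036350* was higher at 24 h (0.53, SE 0.17, adjusted p = 0.0391), a call lost in a fit of only the 24 h libraries (adjusted p = 0.0779). It was also lost on leaving out any control 24 h library, replicate 1 or 3 of infested 24 h, replicate 3 of infested 5 h or replicate 2 of control 5 h, with adjusted p of 0.0523 to 0.123. *Solyc08g081550* was 1.53 higher at 24 h than at 5 h in infested leaflets (SE 0.48, adjusted p = 0.0279), a call lost without replicate 1 (0.101) or 2 (0.0799) of infested 5 h or replicate 1 (0.0963) or 3 (0.0543) of infested 24 h. Between the infested harvests 4 of the 4 tested were called, all higher at 24 h, beside 17.3% of all genes called as higher. Between the control harvests 2 of the 4 were called as higher at 24 h, beside 13.7%. The list's median response to infestation was -0.05 at 5 h and 0.37 at 24 h.

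*Solyc07g049550*, whose identifier is near that of ACO1, was also in that list. In control 5 h it stood at 4.555, 2.654 and 6.94 CPM, in infested 5 h at 7.471, 6.654 and 4.408, in control 24 h at 20.91, 20.52 and 8.792, and in infested 24 h at 51.16, 29.57 and 28.21. The groups did not overlap at 24 h, with 1.11 on the log2 scale (SE 0.38, adjusted p = 0.0511), while at 5 h they overlapped (0.40, SE 0.40, adjusted p = 0.609). Between harvests *Solyc07g049550* was called as higher at 24 h, in controls and in infested leaflets. Both calls held in all 22 alternatives, with log2 fold changes of 1.54 to 2.21 in controls and 2.24 to 2.86 in infested leaflets. Of all genes, 13.7% and 17.3% were called as higher in these comparisons. As for ACO1, control 24 h replicate 3 was the lowest of its group. Over the 12 libraries its correlation with ACO1 was 0.761. No source used here says how reads shared between similar genes were counted, so the values of related genes may not be fully separate.

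In the second candidate list, all 4 identifiers were tested, 2 were higher at 5 h and 0 at 24 h, beside 6.94% and 11.8% of all genes, with medians of 0.75 and 0.33. *Solyc12g099000* was 2.92 higher at 5 h (SE 0.29, adjusted p = 6.94e-05), at 66.23, 61.29 and 60.5 CPM in controls and 326.2, 612.3 and 479.7 in infested leaflets. At 24 h it was 0.71 higher (SE 0.27, adjusted p = 0.0791), at 351.7, 440.6 and 352.1 CPM in controls and 778, 352 and 741.1 in infested leaflets, which overlap. It passed at 24 h without infested 24 h replicate 2 (adjusted p = 0.00536). Its responses differed between the times (-2.21, SE 0.39, adjusted p = 0.0255, edgeR), which was called for no ACC oxidase, and this call was lost without any of 6 single libraries (adjusted p of 0.0518 to 0.0921). Over all genes, those 6 fits called 13 to 44 in this test, against 393 in the main fit. Between the control harvests *Solyc12g099000* rose by 2.61 (SE 0.29, adjusted p = 4.78e-05). The other called at 5 h was *Solyc01g101060* (0.84, SE 0.15, adjusted p = 0.00269). Between the infested harvests *Solyc01g101060* (-0.50, adjusted p = 0.0195) and *Solyc09g008280* (-0.83, adjusted p = 0.0102) were lower at 24 h. Neither was called with library totals alone (-0.19, adjusted p = 0.267, and -0.53, adjusted p = 0.0553), and the first was also lost without replicate 2 of infested 5 h (0.0861) or of infested 24 h (0.0784).

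In the third list, of receptor and signalling candidates, 7 of 8 were tested. Of these, 2 were higher at 5 h and 5 at 24 h, beside 6.94% and 11.8% of all genes, with medians of 0.32 and 0.72. The difference between the times was called for 0 of 7. *Solyc01g096810* was higher at both times (1.07, adjusted p = 0.0135, and 1.29, adjusted p = 0.00342), but the 5 h call was lost on leaving out replicate 2 of infested 5 h (0.0620) or replicate 1 of control 5 h (0.0610). *Solyc06g073720* was also higher at both (0.79, adjusted p = 0.0104, and 0.72, adjusted p = 0.0112), and its 5 h call was lost without control 5 h replicate 1 (0.0512). At 24 h *Solyc10g083610* (0.97, adjusted p = 0.00204), *Solyc06g073730* (0.77, adjusted p = 0.0115) and *Solyc01g009170* (0.36, adjusted p = 0.0317) were higher as well. The last was not called on leaving out replicate 1 (0.0534) or replicate 3 (0.0516) of infested 24 h, or replicate 3 of control 24 h (0.117). When only the 24 h libraries were fitted, *Solyc06g073720* (0.0519), *Solyc06g073730* (0.0601) and *Solyc01g009170* (0.0888) lost their 24 h calls and the other 2 kept them. That fit called 1952 of 17511 genes, against 4418 of 18200 in the main fit.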

How the data were processed

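RNA-seq values of 12 leaf libraries were analysed. The authors used Trimmomatic for trimming, BWA-MEM for mapping and featureCounts for counting. The deposited values are raw whole-number counts. The study names the annotation ITAG2.4. Strand, multi-mapping and fragment settings were not stated. The headers name a shared mapping input for the libraries of each harvest.

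Tools were edgeR 4.0.16, DESeq2 1.42.0 and limma 3.58.1, run under R 4.3.3. Genes above 1 CPM in at least 3 libraries were tested (18200). All 12 libraries were fitted with 1 mean per group, TMM scaling and the quasi-likelihood F test, with Benjamini-Hochberg adjustment over all genes tested and a limit of 0.05. The standard error is the size of the log2 fold change over the root of F. Fits use a prior count of 0.125. A fold against groups without counts is a bound from 3 counts over the group.

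The members and lists were chosen with earlier results of these data known. All members described are named, with the 3 genes most correlated with each member tested (log2 CPM, prior count 2), and listed genes that were called, at most 6 per list. Beyond these, *Solyc05g055070* is given with its values. The library that stood apart in control 24 h, the ratio of ACO1 to ACO4 and the mean of both responses were examined after the values were seen. Alternatives were DESeq2's size factors, library totals, no filter, filterByExpr, DESeq2's Wald test, the likelihood ratio test, an adjusted p below 0.01, an absolute log2 fold change above 1.5, a prior count of 2, the replicate block, the 6 libraries of a time, and each library left out. Tests were tried on simulated data. RefSeq symbols (assembly SLM_r2.1) could not be joined, since 0 of 6 identifiers matched, so no sequence or position is printed. A further item is not reported here.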

Additional observations from a re-analysis of the deposited data

Results flagged for a closer look

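Of the genes followed, 2 had a response that differed between the times by a test of the difference itself. Of all 18200 genes, 2.16% were called in this test. The 2 were 1 of 4 genes tested in the second candidate list and 1 of the 2 light harvesting genes. *Solyc12g099000*, a candidate identifier without a name in the sources used here, responded less at 24 h than at 5 h by -2.21 on the log2 scale (adjusted p = 0.0255, edgeR's quasi-likelihood test with an interaction contrast). Its mean rose from 62.67 CPM in control 5 h to 381.5 CPM in control 24 h, and from 472.8 CPM in infested 5 h to 623.7 CPM in infested 24 h. The infested libraries of 5 h were all above their controls, whereas at 24 h infested replicate 2 (352 CPM) lay within the range of its controls. The adjusted p rose above 0.05 when any of 6 libraries was left out: 0.0663 and 0.0642 for replicates 2 and 3 of infested 5 h, 0.0832 and 0.0921 for the same of control 5 h, and 0.0609 and 0.0518 for replicates 1 and 3 of control 24 h. Over all genes, these 6 fits called only 13 to 44 in this test, against 393 in the main fit.

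*Solyc03g005780*, which the study files under light harvesting, also responded differently, by -1.93 on the log2 scale (adjusted p = 0.047, edgeR's quasi-likelihood test). It was at 2749, 3282 and 3674 CPM in control 5 h and 2359, 3213 and 2860 in infested 5 h, which overlap, and at 353.3, 335.1 and 383.5 CPM in control 24 h and 40.85, 70.89 and 133.1 in infested 24 h, where all infested libraries lay below the controls. The call was lost in 10 of the 12 fits with a library left out (adjusted p of 0.0647 or more), and held without infested 24 h replicate 1 or replicate 3. Over all genes, the main fit called 393 in this test. The fits that lost the call had 13 to 401 genes called, and the fits that kept it 302 and 831.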

How the results depend on the processing

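Of the 3 genes listed as ACC oxidases, 0 were called at 5 h. With no filter, DESeq2's Wald test, the likelihood ratio test, the replicate block and the 6 libraries of that time, 1, ACO1, was called. Leaving out a library gave 0 to 1. Over all genes, the main fit called 2280 of 18200 at 5 h. The settings just named called, in turn, 2174 of 25878, 2890, 2742 and 2009 of 18200, and 3302 of 17044. The fits with a library left out called 1226 to 2690 genes. At 24 h 1 of the 3 was called, against 0 at an adjusted p below 0.01 and 0 with the 6 libraries of that time. With no filter and with filterByExpr 2 were called, as ACS2 was tested as well, through its counts in infested libraries only. Leaving out a library gave 0 to 1. Over all genes, the main fit called 4418 of 18200 at 24 h, against 1913 at an adjusted p below 0.01 and 1952 of 17511 with the 6 libraries. No filter called 4090 of 25878, filterByExpr 4305 of 20315, and the fits with a library left out 2722 to 4666. Between the control harvests 2 were called, against 1 at an adjusted p below 0.01 and 1 at an absolute log2 fold change above 1.5, and leaving out a library gave 1 to 2. For the difference between the responses 0 were called throughout. No call changed direction.

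Replicate numbers were not treated as pairs in the main fit. Of 18 pairs of libraries with the same number, the deviations from the group means correlated above 0.1 in 4 (r from -0.266 to 0.343). Pairs with different numbers ran from -0.349 to 0.326. The deviations of 3 libraries from their mean are tied to each other, so these values cannot exclude a pairing. With the replicate block, 1 was called at 5 h and 1 at 24 h, ACO1 each time, with an adjusted p of 0.0468 at 5 h.

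With 3 libraries per group, an uneven control 24 h group and levels of a few CPM for ACO3 and ACS2, single libraries decide most calls, and a missed call does not show that a gene was unchanged.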
